A study of Homo sapiens with 16 samples.

Results

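Divergent promoters lie between a pair of protein-coding genes on opposite strands that point away from each other. From GENCODE release 44, 984 pairs were taken whose canonical start sites lay no more than 1000 bp apart, and they held 1895 of 20015 protein-coding genes. H3K4me3 peaks of 6 CUT&RUN libraries were merged wherever they shared 1 bp or more. Of the 28846 merged regions, 862 were shorter than 3000 bp and covered a start site of such a pair. These 862 regions are the divergent regions described here, and 781 of them covered both start sites of a pair while 81 covered 1.

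All libraries came from MCF-10A, an established, non-tumorigenic human breast epithelial cell line. Cells were exposed for 24 hours to 5 mM octanoic acid (OA), a medium-chain fatty acid, or to the vehicle phosphate-buffered saline, with 3 libraries for each exposure and each of the marks H3K4me3 and H3K27me3. The untreated controls were 2 H3K4me3 and 2 IgG libraries. Replicates were cultures seeded separately, and all of them were of the same line. The study asked whether OA alters histone methylation, and the comparison of promoter classes was added here.

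The H3K4me3 lists of vehicle and OA cells held 16086 to 21033 peaks, and the lowest background behind any peak was 0.45 reads in the third vehicle library against 0.633 to 0.853 in the others. Every vehicle and OA library of H3K4me3 had a peak over the start site of KRT18, an epithelial keratin, 5 of 6 over CDH1 and EPCAM, and 3 over KRT8. Of the basal markers, LAMB3 had a peak in 5 libraries, KRT17 in 4, KRT5 and ITGB4 in 3, and KRT14 and TP63 in none. Of the luminal markers, FOXA1 had a peak in 6 libraries and GATA3 in 4, while ESR1 and PGR had none. The 4 fibroblast and 4 immune markers had none, and of the 3 endothelial markers KDR had a peak in 4 libraries.

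H3K4me3 is placed on the nucleosomes that flank active start sites by SET1 and MLL methyltransferases. At a divergent promoter the core promoters of both genes share a nucleosome-depleted stretch, often a CpG island with no TATA box, and transcription leaves it in both directions. Many such pairs encode housekeeping proteins of DNA repair, mitochondria and translation. H3K27me3, the Polycomb mark, is associated with repression.

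Sequence between start sites is shown for 7 pairs, to let the strongest H3K4me3 regions be read beside the weakest and beside pairs long known as divergent. Each is the longest run between the start sites that no GENCODE exon touches, in hg38 on the plus strand, so the minus-strand gene lies to the left and the plus-strand gene to the right. Capitals mark exact matches, on either strand, to any of 9 short motifs. The ETS core was searched as CCGGAAG, the NRF1 core as GCGCATGC and the YY1 core as AAGATGGC. The CCAAT box was searched by the letters of its name, the GC box of SP and KLF factors as GGGCGG and the E2F core as TTCCCGC. The TATA box was searched as TATAAA, the E-box of MYC and USF factors as CACGTG and the cyclic AMP response element (CRE) as TGACGTCA. Matches to different motifs were counted separately, overlapping or not. The first 3 belong to regions that ranked near the top of every library, the next 2 to regions that ranked low in every library, and the last 2 to textbook pairs between them.
NSL1/TATDN3, chr1:212791783-212791827: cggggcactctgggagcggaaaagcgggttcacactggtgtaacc
TFB2M/CNST, chr1:246566262-246566443: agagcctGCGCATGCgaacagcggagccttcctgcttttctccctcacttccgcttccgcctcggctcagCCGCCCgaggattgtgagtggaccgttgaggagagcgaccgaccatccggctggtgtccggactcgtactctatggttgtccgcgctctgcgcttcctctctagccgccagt
YIPF5/KCTD16, chr5:144170715-144170872: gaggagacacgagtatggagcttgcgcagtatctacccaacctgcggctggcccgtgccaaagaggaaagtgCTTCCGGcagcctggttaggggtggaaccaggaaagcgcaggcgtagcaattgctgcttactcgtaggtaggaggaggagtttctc
COL4A4/COL4A3, chr2:227164206-227164395: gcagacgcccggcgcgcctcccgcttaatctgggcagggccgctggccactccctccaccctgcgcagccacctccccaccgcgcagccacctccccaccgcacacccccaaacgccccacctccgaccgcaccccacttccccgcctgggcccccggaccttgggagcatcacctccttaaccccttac
TK1/AFMID, chr17:78187234-78187357: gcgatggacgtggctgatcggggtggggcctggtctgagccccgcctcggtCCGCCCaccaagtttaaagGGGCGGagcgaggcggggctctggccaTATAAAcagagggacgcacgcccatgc
COL4A1/COL4A2, chr13:110307158-110307257: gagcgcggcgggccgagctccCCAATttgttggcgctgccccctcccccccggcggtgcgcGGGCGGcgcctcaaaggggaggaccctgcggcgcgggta
PPAT/PAICS, chr4:56435616-56435740: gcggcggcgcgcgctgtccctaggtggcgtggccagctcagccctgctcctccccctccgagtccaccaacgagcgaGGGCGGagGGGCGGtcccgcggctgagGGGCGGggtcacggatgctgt

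The ETS core was the motif whose share differed most between the classes. In windows from 250 bp before to 50 bp after the start site, on hg38 with GENCODE start sites, it was present at 32.6% of the 886 plus-strand genes of divergent regions, 18.7% of the 9371 single promoters and 14.1% of all protein-coding genes. The YY1 core was at 9.37%, 5.58% and 4.05% in the same order, and the NRF1 core at 7.79%, 5.77% and 4.28%. CCAAT, the most common of these apart from the GC box, was at 40.4%, 35.7% and 36.0%. GC boxes were at 74.2% of divergent windows against 78.1% of single promoters and 61.3% of all genes. The TATA box was in 3.27% of divergent windows, 4.73% of single promoters and 9.71% of all genes. The E2F core was at 10.9%, 11% and 8.62%, the E-box at 11.7%, 10.1% and 8.76%, and the CRE at 4.51%, 3.46% and 2.69%. Median GC content was 65% at divergent genes, 67.7% at single promoters and 63.7% over all genes. At the 1447 single promoters with a long non-coding RNA pointing apart, a class described below, the ETS, YY1 and NRF1 cores were at 22.3%, 5.11% and 6.50%. Start sites of a pair lay a median of 233.5 bp apart, so a divergent window often also held the start site of the partner gene. These shares are descriptions of exact letters and carry no test, and nothing was measured here of any factor's binding.

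Divergent regions carried H3K4me3 in nearly every library. A single promoter is a region under 3000 bp that covers the start site of exactly 1 protein-coding gene outside all pairs, and 9371 regions met this. Of the 862 divergent regions, 835 had a peak in all 6 libraries, which is 96.9%, against 81.9% of single promoters and a background of 38.4% over all merged regions. A further 17 had a peak in 5 libraries, 2 in 4 libraries and 8 in 3 or fewer. The share of divergent regions with a peak was 99% in the first and second vehicle libraries and 97.6% in the third, against 99.2%, 99.7% and 99.9% in the OA libraries. Single promoters were at 93.8%, 91.1% and 83.0% in vehicle against 93.8%, 96.0% and 99.4% in OA. The classes were therefore furthest apart in the third vehicle library and nearest in the third OA library, which held the most peaks.

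Averaged over the 6 libraries, the share was 99% ± 0.813 (SD, n = 6) for divergent regions and 92.9% ± 5.56 for single promoters. The difference of 6.18 percentage points was in the same direction in 6 of 6 libraries, and an exact two-sided sign-flip permutation test over libraries gave p = 0.03125, the smallest possible with 6 libraries, and the same value after Benjamini-Hochberg adjustment over 4 class comparisons. That test covers the spread between libraries, not between promoters. Without the third OA library the difference was 3.96 points.

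The untreated H3K4me3 libraries took no part in the choice of regions. They had a peak at 801 and 770 of the 862 divergent regions, which is 92.9% and 89.3%. Single promoters were at 76.1% and 69.5%, and all merged regions at 37.5% and 33.7%. The first IgG library had a peak at 17 divergent regions (1.97%) and at 0.918% of single promoters, and the second at 0 and 0.032%. Over all merged regions the IgG shares were 3.21% and 2.95%. The rule gives a divergent region 2 chances to cover a start site and requires a call in at least 1 library. Every canonical start site was therefore also counted, whatever region covered it, a comparison added after the data were seen. That count does not remove the 2 chances. Start sites of a pair lay a median of 233.5 bp apart, so a peak at 1 gene can also cover the start site of its partner. In the 6 libraries 82.7% ± 7.47 of start sites in pairs lay under a peak against 44.9% ± 6.83 of the others, a difference of 37.7 ± 2.76 points (exact two-sided sign-flip test, p = 0.03125, higher in 6 of 6).

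Divergent regions were also longer. Covered length, the summed length of a library's peaks within a region, had a median of 1668, 1664 and 1136 bp in the 3 vehicle libraries and 1359, 1600 and 1656 bp in the 3 OA libraries. Single promoters had 1249, 1271 and 848 bp in vehicle and 1048, 1254 and 1328 bp in OA. Both classes were shortest in the third vehicle library. The mean difference was 347.5 ± 49.9 bp (SD, n = 6) and ran from 288 to 419 bp across libraries (exact sign-flip test, adjusted p = 0.03125). The 781 regions over both start sites also contain the spacing between them, a median of 224 bp. The part of that spacing in the difference was not tested.

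The direction for strength depended on which of the caller's values ranked the peaks. Rank by p-value is the percentile of a region's best peak among all peaks of its library, so that 100 is the strongest. It had a median of 79.6, 78.5 and 78.2 in vehicle and 74.5, 79.2 and 78.3 in OA at divergent regions, against 70.9, 65.7, 66.7, 65.5, 65.5 and 70.3 at single promoters. Divergent regions were 10.6 ± 2.40 percentiles higher, in 6 of 6 libraries (exact sign-flip test, adjusted p = 0.03125). Ranked by fold over local background instead, they were 6.53 percentiles lower on average, with medians of 59.5 ± 6.40 against 66.1 ± 2.16, lower in 5 of 6 libraries (exact sign-flip test, p = 0.0625).

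The read numbers behind the peaks, solved from the deposited fold and p-value, differed in both terms. The median pileup at the best peak of a divergent region was 103, 169 and 52 reads in vehicle and 46, 119 and 115 reads in OA. At single promoters it was 78, 114, 34, 38, 85 and 93 reads. The median local background was 12.2, 16.9, 3.36, 5.74, 11.6 and 12.6 reads at divergent regions and 7.38, 9.19, 2.01, 4.07, 7.09 and 8.38 reads at single promoters. Pileup and background were both higher at divergent regions in each of the 6 libraries. The part of the local background in either ranking was not tested.

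**Figure D1:**
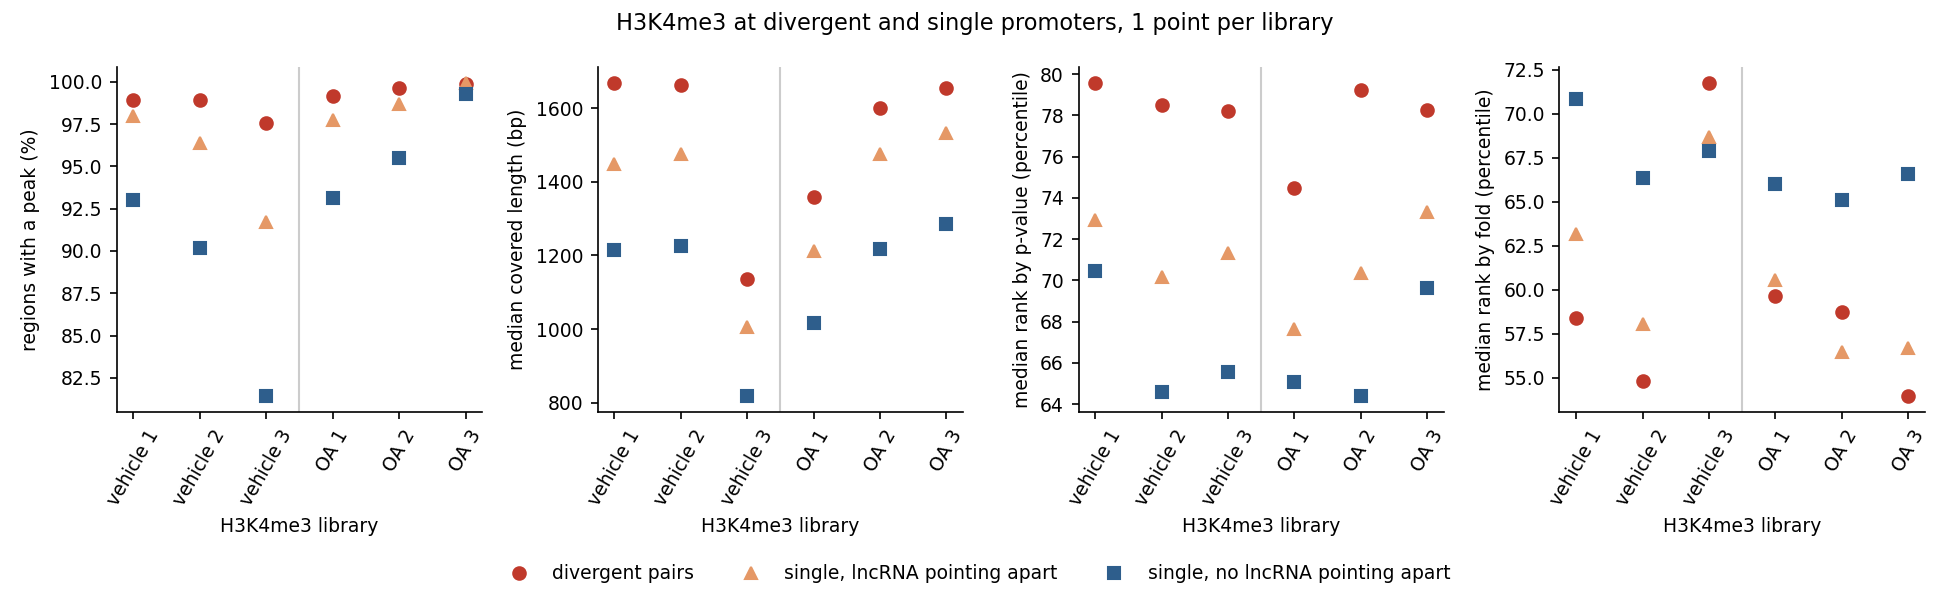
Each panel plots 1 point per H3K4me3 library for divergent regions (circles), single promoters with a lncRNA pointing apart (triangles) and other single promoters (squares): the percent of regions with a peak, the median covered length in bp, the median rank by p-value and the median rank by fold, both in percentiles. Divergent regions are highest in nearly every library in the first 3 panels, with shares of 97.6% to 99.9%, while in the fourth they are below the squares in every library but the third vehicle library.

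Single promoters that share their stretch with a long non-coding RNA (lncRNA) lay between the other classes on share, length and p-value rank. Of the 9371 single promoters, 1447 had a lncRNA start site on the opposite strand, pointing apart, within 1000 bp. They had a peak in all 6 libraries at 91.2%, and a median merged length of 1704 bp against 1872.5 bp for divergent regions and 1427 bp for the single promoters with no such lncRNA. Against this narrower set, chosen for comparison after the data were seen, divergent regions were higher by 1.96 points in share (5 of 6 libraries), by 155.75 bp in covered length (6 of 6) and by 7.11 percentiles in p-value rank (6 of 6). The adjusted p of the exact sign-flip tests were 0.0833, 0.0625 and 0.0625.

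The shape of the marked stretch differed as well. In the 719 regions over both start sites of exactly 1 pair, the mark ran a median of 821 bp into the minus-strand gene and 811 bp into the plus-strand gene. Single promoters with no lncRNA pointing apart had a median of 1001.5 bp downstream of the start site and 360 bp upstream. With such a lncRNA the upstream part was 647 bp and the downstream part 1044 bp. Within a divergent region the longer side had a median of 976 bp and the shorter 671 bp. The longer side was picked by length in each region, whereas the 1001.5 bp side of single promoters with no lncRNA is set by gene direction. The longer side of single promoters was not computed, so these are unlike measures, and their difference was not tested. Both sides and the spacing of a divergent region had to fit under the limit of 3000 bp.

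The average profile of the divergent regions was close to symmetrical, with the minus-strand gene always to the left. Strand does not sort the longer side of a region from the shorter. The average therefore cannot show whether individual regions were symmetrical. At 600 bp to the left of the midpoint between the start sites, 69.6% of regions lay under a vehicle peak and 78.0% under an OA peak, and at 600 bp to the right 70.9% and 75.8%. At the midpoint itself coverage was 90.8% in vehicle and 87.8% in OA.

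**Figure D2:**
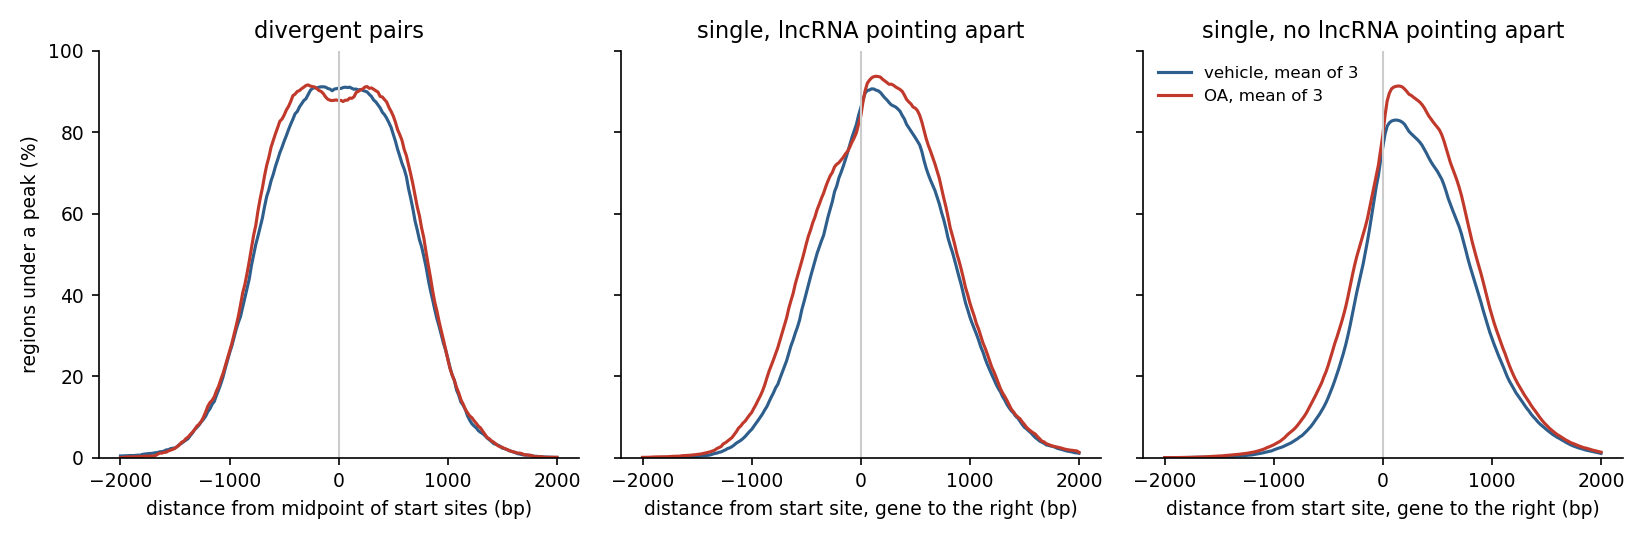
Percent of regions under a peak (mean of 3 vehicle and of 3 OA libraries) against distance in bp, from the midpoint of the start sites for 719 divergent regions and from the start site, with the gene to the right, for single promoters. The average divergent profile, with the minus-strand gene always to the left, is close to symmetrical and holds 90.8% coverage at the midpoint in vehicle. The profiles of single promoters fall off faster to the left, to 9.96% at 600 bp upstream in vehicle where no lncRNA points apart.

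The strongest point of the peak lay over a gene more often than between the start sites, which is the shorter stretch. Start sites covered together lay a median of 224 bp apart, and the length outside them had medians of 1540 to 1700 bp by spacing. Whether the summits differed from what these widths give was not tested. In the 6 libraries the summit of the best peak was between the start sites in 3.22% to 14.6% of called regions, over the minus-strand gene in 44.8% to 49.3% and over the plus-strand gene in 40.6% to 47.6%. The third vehicle library had the highest share between the start sites. At single promoters the summit was upstream of the start site in 10.5% to 17.2%. The gene under the summit often changed from library to library. Of 708 such regions called in all 6 libraries, the summit stayed over the minus-strand gene in 163, over the plus-strand gene in 143 and between them in 9, while in 299 it was over the minus-strand gene in some libraries and over the plus-strand gene in others. Between 3.20% and 28.5% of these divergent regions were split into more than 1 peak in a library, the highest share in the first OA library, against 2.58% to 13.4% of single promoters.

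Wider spacing between the start sites went with longer regions, which is partly built in, since a region over both start sites contains the spacing. Regions over both start sites had a median spacing of 224 bp, from 11 to 995 bp. Where the start sites were at most 100 bp apart the median region was 1674 bp long. It was 1767.5 bp above that up to 200 bp, 1927 bp up to 300 bp, 2070 bp up to 500 bp and 2213 bp up to 1000 bp. The length outside the start sites varied less, with medians of 1603, 1628, 1676, 1700 and 1540 bp in the same order. Across the 719 regions, Spearman's rho with spacing was 0.427 for length and -0.0302 for the median p-value rank. These points share their libraries, and the upper length limit holds for all of them.

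Wide spacing also meant that a region covered both start sites less often. Among members over 1 pair, both were covered in 99.3%, 97.3%, 95.4%, 91.0% and 65.7% from the narrowest to the widest spacing. The pairs PASK/PPP1R7 and SMIM7/TMEM38A, both 995 bp apart, were still covered by single regions of 2215 and 2502 bp. In 13 pairs the start sites lay in different regions, among them HNRNPA2B1/CBX3, an RNA-binding protein and a heterochromatin protein, 999 bp apart. Its minus-strand region ranked at 59.9, 64.4 and 93.9 in the vehicle and 69.7, 69.4 and 73.1 in the OA libraries. Its plus-strand region ranked at 46.3, 40.6 and 30.6 in vehicle and had no peak in the first OA library, with 39.8 and 32.7 in the others. A further 32 pairs were covered only by regions of 3000 bp or more and 33 pairs by no region. At the length limit, RPL12/LRSAM1 was kept at 2999 bp and GUCD1/SNRPD3 at 2930 bp, while IFT140/CRAMP1 at 3003 bp and SKA2/PRR11 at 3006 bp were not. In all, 3.36% of divergent regions and 1.5% of single promoters were lost to that limit.

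**Figure D3:**
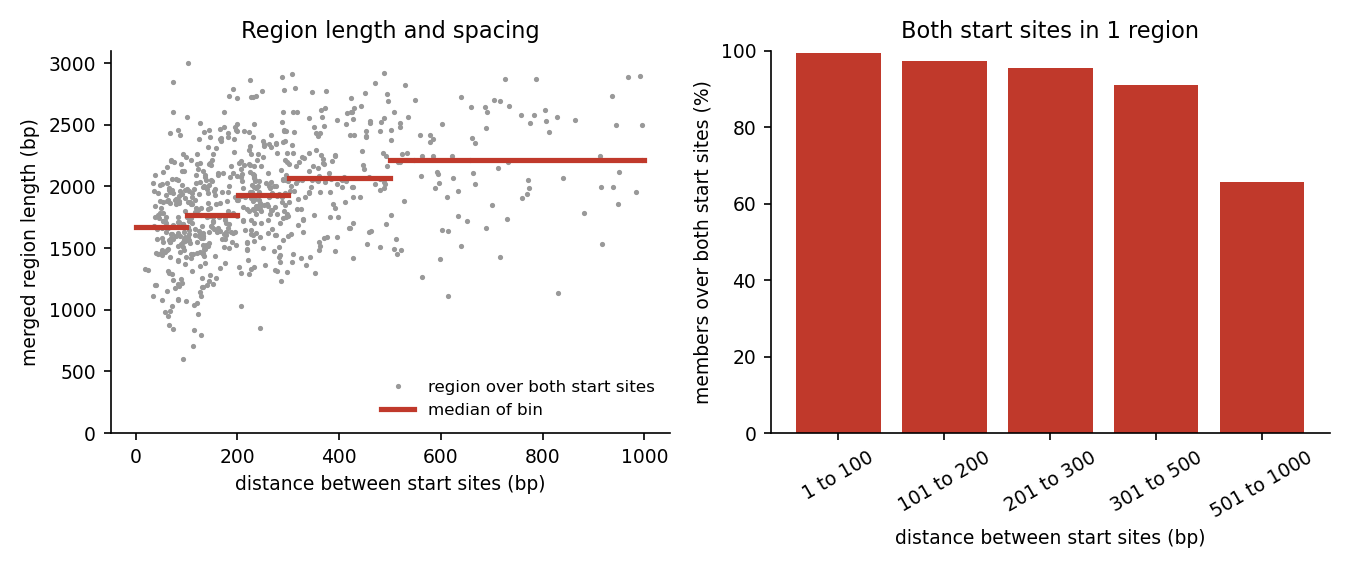
Left, merged region length in bp against the distance between start sites in bp, 1 point for each of the 719 regions over both start sites of 1 pair, with a bar at the median of each distance bin. Right, the percent of members over 1 pair that cover both start sites, by distance bin; bin medians rise from 1674 to 2213 bp and the percent falls from 99.3% to 65.7%.

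The strongest divergent regions ranked near the top in every library. The region of MRPL13/MTBP, a mitochondrial ribosomal protein and an MDM2-binding protein, ranked at 99.2, 99.8 and 99.2 in vehicle and 98.7, 99.8 and 98.8 in OA. AIDA/BROX ranked at 99.3, 99.2 and 98.4 in vehicle and 98.9, 99.9 and 99.4 in OA. NSL1/TATDN3, of which NSL1 is a subunit of the MIS12 kinetochore complex, ranked at 98.7, 98.6 and 99.4 in vehicle and 98.2, 99.9 and 98.5 in OA. TFB2M, a mitochondrial transcription factor, and CNST shared a region at 98.6, 99.7 and 99.4 in vehicle and 98.1, 98.5 and 99.4 in OA. SUPT7L, a subunit of the SAGA coactivator, and SLC4A1AP were at 98.3 to 99 in vehicle and 96.7 to 99.6 in OA, and YIPF5/KCTD16 at 96.1 to 98.5 and 98.5 to 99.7. The vehicle and OA ranks overlapped in these regions except YIPF5/KCTD16, where every OA rank was above every vehicle rank, by less than the last digit printed at the nearest values. The region of YIPF5/KCTD16 covered the start site of YIPF5 but not that of KCTD16. The region of TFB2M/CNST also had a peak in 1 IgG library. These regions were chosen for these ranks, so the values describe them and no test applies. The regions of NSL1/TATDN3, AIDA/BROX and TFB2M/CNST all lay on chromosome 1, starting at 212790960, 222711319 and 246565018. Ranks were not adjusted for DNA copy number, which was not measured here.

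The weakest regions that still had a peak in all 6 libraries ranked below 50 in each of them. COL4A4/COL4A3, type IV collagen chains of specialised basement membranes, ranked at 10.2, 27.7 and 21.1 in vehicle and 17.4, 38.3 and 41.9 in OA. TK1, the S-phase thymidine kinase, and AFMID ranked at 43.9, 37.4 and 27.5 in vehicle and 25.2, 13.6 and 36.5 in OA. One of the 2 regions of the histone pair H3C7/H2BC9, which each covered 1 start site, ranked at 13.6 to 36.2 in vehicle and 36.1 to 44.4 in OA. The ciliary genes AK8/SPACA9 were at 32.4 to 41 and 34.5 to 45.2. ENKUR/THNSL1 were at 30.3 to 36.6 in vehicle and 39 to 48.6 in OA, so that their groups did not overlap.

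Of 19 textbook divergent pairs, 12 were pairs by their GENCODE canonical start sites and 10 had a member region. HSPD1/HSPE1 and GART/SON had only a region above the length limit. TAP1/PSMB9, the antigen peptide transporter and an immunoproteasome subunit, ranked highest, at 91.8, 82.5 and 96.6 in vehicle and 89.4, 94.5 and 96.3 in OA. NPAT/ATM, a histone gene coactivator and a DNA damage kinase, followed at 78.7, 79 and 83.1 in vehicle and 89.2, 83.8 and 67.9 in OA, and its region had a peak in 1 IgG library. COL4A1/COL4A2, the type IV collagen chains of most basement membranes, ranked at 65.2, 79.6 and 55.7 in vehicle and 96.9, 63.3 and 90.5 in OA, above COL4A4/COL4A3 in every library. SURF1/SURF2, start sites 63 bp apart, ranked at 59.4, 60.3 and 59.8 in vehicle against 63.7, 43.8 and 61.6 in OA. The DNA repair and replication pair PRKDC/MCM4 was at 61 to 77.1 in vehicle and 58.8 to 66.2 in OA, and RECQL4/LRRC14 at 69.7 to 82.1 and 39.2 to 80.1. PPAT and PAICS, both enzymes of purine synthesis, had a region each, with ranks of 48 to 63.2 and 48.9 to 89.3 in vehicle and 28.6 to 76.1 and 33 to 70.3 in OA. The vehicle and OA ranks overlapped in each textbook pair described here.

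**Figure D4:**
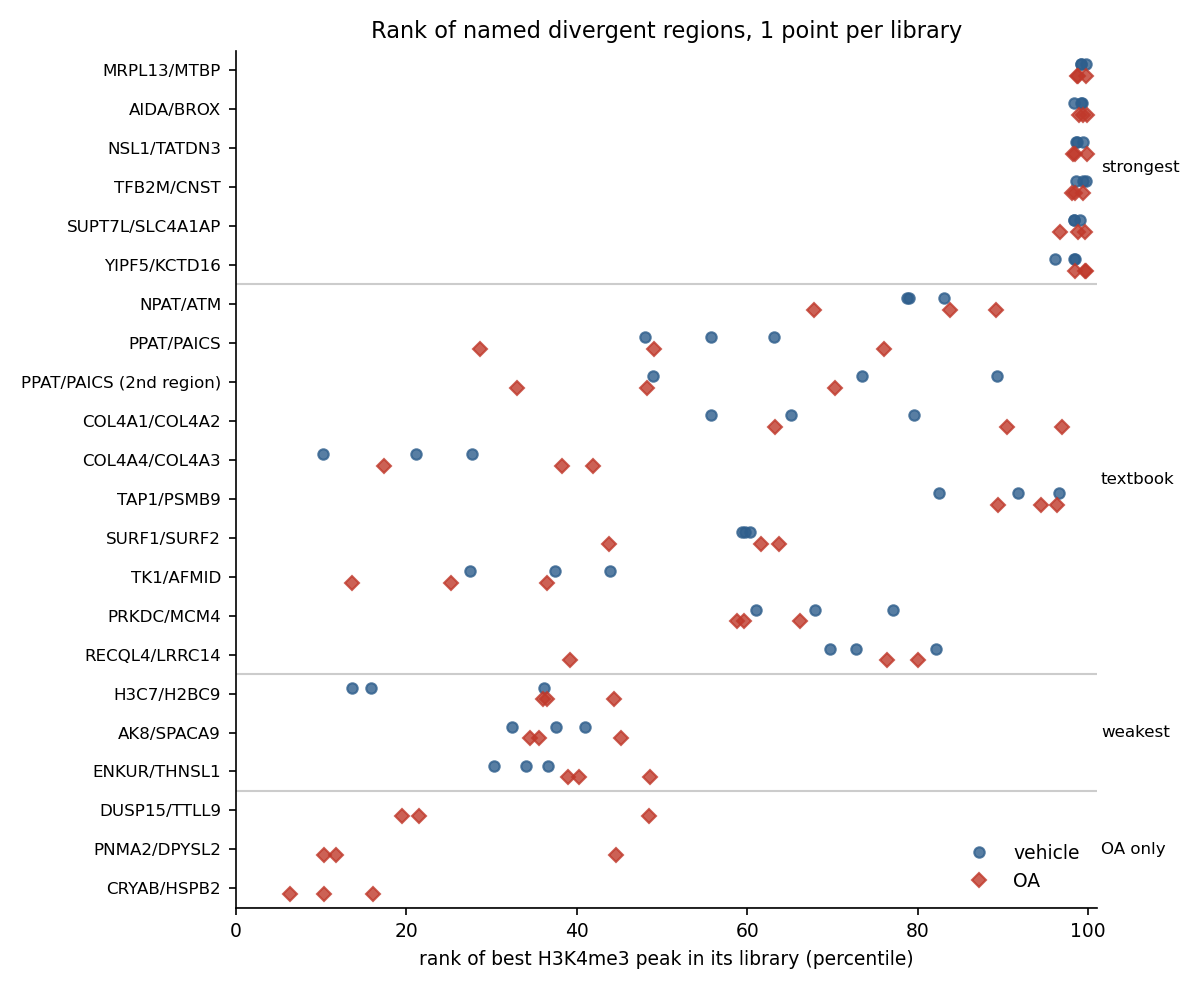
Rank in percentiles of the best H3K4me3 peak of each named divergent region, 1 circle per vehicle and 1 diamond per OA library. The 6 strongest regions stay at 96.1 or higher in every library, the textbook pairs spread from 10.2 to 96.9, and the 3 regions called in OA alone have no vehicle point.

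The share of each housekeeping list called in all 6 libraries was close to the 96.9% of all members, which leaves little room above it. Of 105 DNA repair genes in the annotation, 38 were in a divergent pair (36.2%, against 9.47% of all protein-coding genes), and their 38 regions had a peak in all 6 libraries, with a median rank of 76. Among the strongest were AK6/RAD17 and RECQL5/SAP30BP, of which RAD17 loads the checkpoint clamp and RECQL5 is a RecQ helicase. Mitochondrial ribosome genes had 25 regions, 23 of them (92%) called in all 6, with a median p-value rank of 80.3, and GGA3/MRPS7 ranked at 96 to 99.9. The 30 respiratory chain regions were called in all 6 libraries with a median rank of 85.2, against 78.1 over all members. NDUFA2/IK, of which NDUFA2 is a complex I subunit, ranked at 91.9 to 99. The 13 cytoplasmic ribosome regions had the longest median length, 2510 bp, and a median rank of 82.8. The 6 aminoacyl-tRNA synthetase regions and the 9 proteasome regions were all called in 6 libraries, with median ranks of 85.8 and 83.1. Regions of the kinetochore list numbered 11, of RNA polymerase and general factors 19 and of DNA replication 13, and all were called in 6 libraries, with median ranks of 79.7, 78.4 and 74.6.

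The 10 histone regions had a median rank of 47.4 and 8 of them were called in all 6 libraries. H2AC25/H2BC26 had the highest ranks of that list, 98.2, 94.3 and 71.8 in vehicle and 98.8, 83.3 and 99.3 in OA, and had a peak in 1 IgG library. Histone genes are near-identical copies, so reads at their regions may be shared. Of 515 zinc finger genes 39 were in pairs (7.57%), and their 30 regions had a median rank of 66.4. The DnaJ and heat shock list had 6 regions, 5 called in all 6 libraries, with a median rank of 77.4. The 7 regions of the serine and one-carbon list, the pathway at the centre of the study, were all called in 6 libraries, with a median rank of 63.7. SLC25A32, the mitochondrial folate carrier, with DCAF13 ranked at 89.9 to 99.3, and PSPH, the last enzyme of serine synthesis, with CCT6A at 77.9 to 97.4. These lists were chosen with earlier results of the data known and have no test.

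H3K27me3 was rare at divergent regions. A peak of that mark overlapped 3, 4 and 4 of the 862 regions in the vehicle libraries and 14, 3 and 0 in the OA libraries, a mean of 0.541% ± 0.557 (SD, n = 6). Over all merged regions the shares were 2.88%, 2.27% and 2.04% in vehicle and 4.58%, 1.47% and 0.742% in OA. Single promoters had 2.02%, 1.84% and 1.63% in vehicle against 2.75%, 0.896% and 0.235% in OA, a mean of 1.56%. The difference of -1.02 ± 0.532 points was negative in 6 of 6 libraries (exact sign-flip test, adjusted p = 0.03125). Against single promoters with a lncRNA pointing apart it was -0.219 points, negative in 4 of 6 libraries (exact sign-flip test, adjusted p = 0.125). Its size depended on the lists, since it was -0.289 points with equal numbers of peaks per library and -0.40 points without the third OA replicate, and with q-values of 1e-05 or less it was -0.0018 points (exact sign-flip test, adjusted p = 1). The H3K27me3 lists held 9091 to 47648 peaks, the fewest in the third OA library.

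Only 18 divergent regions had an H3K27me3 peak in any library, and 13 of these had it in 1 library. The first OA library had the mark at 14 of them. DUSP15/TTLL9 had the mark in 5 of 6 libraries, all 3 vehicle and the first and second OA libraries. PNMA2/DPYSL2 had it in 4, all 3 vehicle and the second OA library. No divergent region had it in all 6.

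Called in every OA library and no vehicle library were 3 of the 862 regions (0.348%), against 1.17% of single promoters and a background of 1.2% over all merged regions. No divergent region was called in every vehicle and no OA library, where the background was 0.052%. The 3 regions were those of DUSP15/TTLL9, PNMA2/DPYSL2 and CRYAB/HSPB2. DUSP15, a dual-specificity phosphatase, and TTLL9, a tubulin ligase-like protein, shared a region of 1874 bp that ranked at 19.5, 21.5 and 48.5 in the OA libraries. PNMA2, a neuronal paraneoplastic antigen, and DPYSL2, an axon guidance protein, shared a region that ranked at 11.7, 10.4 and 44.6. CRYAB and HSPB2 encode small heat shock proteins, and their region covered the start site of CRYAB but not that of HSPB2. It ranked at 10.3, 6.4 and 16.1 with covered lengths of 264, 447 and 744 bp. None of the 3 had a peak in the untreated or IgG libraries. DUSP15/TTLL9 and PNMA2/DPYSL2 were also the divergent regions with the most H3K27me3 calls, whereas CRYAB/HSPB2 had none. With a q-value limit of 1e-05, or with equal numbers of peaks, the OA-only class held 1 region, and without the first OA replicate there were 6. No share over all regions was computed under these settings.

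Over all divergent regions, no difference between vehicle and OA libraries passed its test. The share called was 98.5% ± 0.804 in vehicle and 99.6% ± 0.354 in OA (n = 3 each), and the groups did not overlap, with OA higher (exact permutation test, two-sided, p = 0.1, adjusted p = 0.6 over 6 comparisons). With 3 libraries against 3, p cannot go below 0.1. Median covered length was 1489 ± 306 bp in vehicle and 1538 ± 158 bp in OA (exact permutation test, p = 1). Median p-value rank was 78.8 ± 0.710 and 77.3 ± 2.51 (exact permutation test, p = 0.5, adjusted p = 0.75). The gap between divergent and single promoters was also compared between groups. In share called it was 9.19 points in vehicle and 3.17 in OA (exact permutation test, p = 0.2, adjusted p = 0.6). It was 366.7 and 328.3 bp in covered length (exact permutation test, p = 0.4) and 11 and 10.3 percentiles in rank (exact permutation test, p = 0.9).

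Regions whose ranks did not overlap between groups occurred at shares near the background. Of the 835 regions called in all 6 libraries, 61 ranked higher in every OA library than in any vehicle library, 7.31% against a background of 9.38% over the 11071 regions called in all 6. A further 76 ranked lower in every OA library, 9.10% against a background of 7.1%. Ranked by fold, the counts were 34 and 66, but no share over all regions was computed for that ranking. The regions named next were chosen from these after their values were seen, so they carry no test, and unnamed regions had gaps as wide as some of theirs.

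The widest gap with OA higher was at TRADD/FBXL8, of which TRADD is the adaptor of TNF receptor 1, with ranks of 65, 68.1 and 37.9 in vehicle and 87.8, 94.2 and 92.1 in OA. SFXN3, a mitochondrial carrier of the sideroflexin family, and PDZD7 shared a region at 48.5, 34.5 and 28.3 in vehicle and 63, 82.2 and 67.7 in OA. SGSH, a lysosomal sulfatase, and SLC26A11 were at 77.8, 62.2 and 27.5 in vehicle and 88.8, 91.6 and 87.9 in OA. In these and in the histone pair H2BC12/H2AC12, at 48.6, 40.6 and 27.3 against 62.4, 81.8 and 70.4, the third vehicle library gave the lowest value. ZFYVE28/CFAP99 was steadier within vehicle, at 33.7, 31.5 and 33.3, against 64.3, 43.5 and 88.3 in OA. Its region also had an H3K27me3 peak in vehicle replicates 2 and 3 and in no OA library.

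Among the regions that ranked lower in OA, PTRHD1/CENPO, of which CENPO is a kinetochore protein, was at 86.4, 66.4 and 85.9 in vehicle and 31.4, 45.8 and 59 in OA. RMND1, a protein of mitochondrial translation, and ARMT1 were at 67.9, 85.2 and 89.9 against 39.8, 65.8 and 53.3. The first of the 2 regions of DDX5/CEP95, an RNA helicase and a centrosomal protein, was at 42.8, 47.7 and 71.5 against 12.6, 31.8 and 35. In all 3 the first OA library gave the lowest value. Within the respiratory chain list, 6 of the 30 regions ranked lower in every OA library (20%, against 9.10% of members and 7.1% of all regions) and 1 ranked higher (3.33%, against 7.31% and 9.38%). That list had the highest share of lower regions among the 13 lists and was picked for it, with no test. Its median difference was -3.17 percentiles, against -1.66 over all members. The 6 included NDUFB1/CPSF2, at 88.4, 95.3 and 95.8 in vehicle and 58.2, 74.4 and 83.3 in OA. On the serine and one-carbon list, FASTKD3/MTRR, of which MTRR reactivates methionine synthase, was lower in OA, at 85.9, 77.4 and 87.6 against 57.2, 74.3 and 68.4. NDUFB1/CPSF2 and FASTKD3/MTRR also had their lowest value in the first OA library. The other 6 regions of the serine and one-carbon list overlapped between groups.

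**Figure D5:**
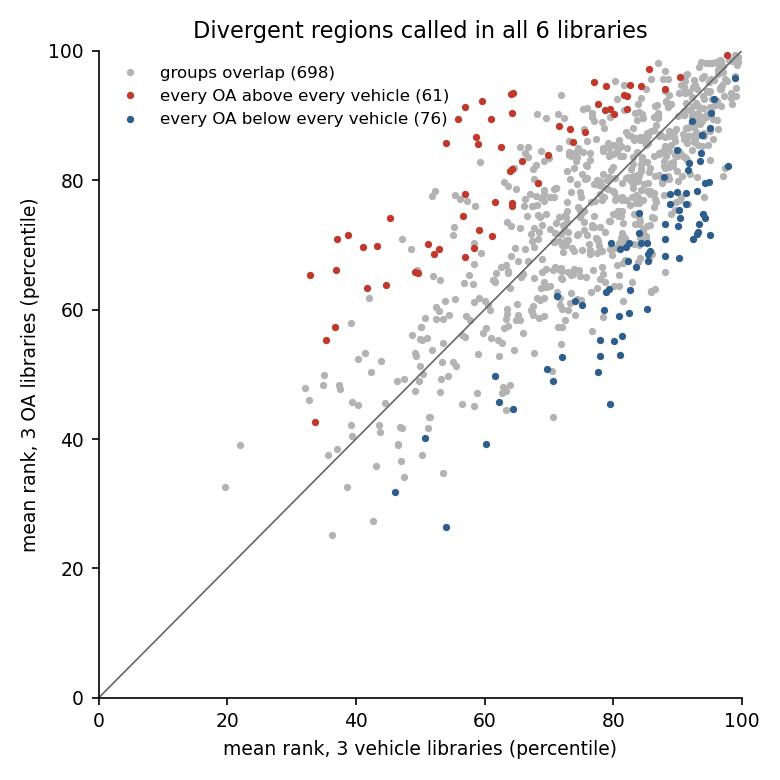
Mean p-value rank in percentiles over the 3 OA libraries against the mean over the 3 vehicle libraries, 1 point for each of the 835 divergent regions called in all 6 libraries, with the line of equality. The 61 regions with every OA rank above every vehicle rank and the 76 with every OA rank below lie on either side of the 698 whose ranks overlapped.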

How the data were processed

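CUT&RUN peak lists of 16 libraries were used, grouped by the submitters' labels. The authors called H3K4me3 peaks with MACS2 v2.2.7.1, in each library separately on hg38. The methods name SICER2 for H3K27me3, but the files are laid out as broadPeak, a MACS2 format, so which caller set their q-values is not known. The aligner, duplicate handling and whether IgG served as the caller's control are not given in the sources used here. The deposited lists hold a fold ratio over local background and −log10 p and q values, none scaled between libraries. The deposited lists hold no read counts, so library depth is unknown and no count test was run. Their highest q-values were close to 0.01 for H3K4me3 and 0.1 for H3K27me3.

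Peaks on the autosomes, X and Y were kept, and 0 peaks ran past a chromosome end. The 6 H3K4me3 lists from vehicle and OA cells were then merged at 1 bp. A region's rank is the percentile of its best peak's p-value in that library. Pileups were solved from MACS2's (pileup + 1)/(background + 1) and its Poisson p-value for −log10 p up to 250. Classes were compared within libraries by sign-flip tests, conditions by permutation tests. Overlaps and tests were checked on simulated data. Sequence came from hg38 and GENCODE 44, with Python 3.11.15, numpy 2.4.6 and scipy 1.17.1.

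Members, lists and tests were chosen with earlier results of these data known. Named were the textbook pairs with a member region, the 6 members with the highest lowest and the 6 with the lowest highest rank, OA-only members, members at the spacing and length limits, split pairs, serine and one-carbon pairs and up to 3 examples a list. Not all are described, and some named items are not reported here. Alternatives changed the library minimum, q-value, peak number, length limit, start sites covered, spacing, comparison set, IgG overlap, ranking value and replicate left out.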

Additional observations from a re-analysis of the deposited data

How the results depend on the processing

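Beside leaving out libraries, 15 of the 16 results had alternatives, and the start-site difference had none. Of 37 values of class differences, 31 kept their direction and side of the threshold, and of 37 numbers of regions 34 stayed within 1.5 times. The 53 values of OA minus vehicle kept their direction, but with 3 libraries a group they could not have passed the threshold. Rank by fold turned the p-value rank difference between divergent and single promoters from 10.6 to -6.53 percentiles. Against single promoters with a lncRNA pointing apart, a set added after the data were seen, the differences were 1.96 points in share, 155.75 bp in covered length, 7.11 percentiles in rank and -0.219 points in H3K27me3 share, with adjusted p of 0.0833, 0.0625, 0.0625 and 0.125. With q-values of at most 1e-05 the H3K27me3 difference was -0.0018 points and 1 region was called in OA only, which was also the count with equal numbers of peaks. Rank by fold left 34 regions with every OA rank above every vehicle rank. Shares over all regions were not computed under these changed settings.

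With 5 libraries an exact sign-flip test cannot go below p = 0.0625, so no class difference could pass the threshold when a library was left out. Leaving out each in turn, the class difference ran from 3.96 to 6.47 points in share, from 334.5 to 357.5 bp in length, from 9.90 to 11 percentiles in rank and from -1.09 to -0.40 points in H3K27me3 share, where leaving out OA replicate 3 gave the smallest differences in share and in H3K27me3. The start-site difference ran from 36.9 to 38.6 points. OA minus vehicle ran from 0.619 to 1.32 points in share, from -130 bp without vehicle replicate 3 to 139 bp without OA replicate 1 in covered length, and from -2.55 to -0.0164 percentiles in rank. The class gap, OA minus vehicle, ran from -7.96 to -3.34 points, from -80.4 to -11.7 bp and from -2.64 to -0.074 percentiles. Regions called in OA only numbered 3 to 6, in vehicle only 0 to 1 and in all libraries 838 to 846. Regions with every OA rank above every vehicle rank numbered 77 to 139, and below 103 to 165, since fewer libraries have to be ordered. Shares over all regions were not computed with a library left out.

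No sign of pairing by replicate number was seen. Deviations of same-numbered vehicle and OA libraries correlated at 0.158, 0.107 and -0.124, and those of differently numbered ones at -0.341 to 0.239. Such correlations cannot show how the replicates were handled, and the labels do not give it. With the replicate number as a block, the OA minus vehicle differences of 1.08 points, 49 bp and -1.42 percentiles and of the class gap, -6.02 points, -38.3 bp and -0.755 percentiles, had exact sign-flip p of 0.25, 1, 1, 0.5, 0.5 and 1, where 3 pairs cannot go below 0.25, and no call changed.

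Peak lists show whether a library passed the caller's threshold, not how much signal lay below it, and pileups differ with depth, so a missing call is no measure of absence.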
